A study of Gallus gallus with 16 samples.

Results

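The genes described here build and load the autophagosome and deliver it to the lysosome. They were chosen by name, as 33 gene symbols looked up in the deposited table of chromatin peaks, and 32 of them occur there, among 14100 gene IDs in all. GABARAP has no row under that symbol and was not analysed here. The table assigns 291 of the 108520 peaks of the series to these 32 genes.

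The study profiled lenses of White Leghorn chick embryos at embryonic day 13 by CUT&RUN, in which an antibody against a histone mark directs a nuclease to release the DNA around that mark. Whole lenses were kept in culture for 2 h at 21% oxygen (normoxia) or at 1% oxygen (hypoxia), and the labels give the cell type as lens fiber cells. The extraction text speaks of 0 h or 2 h of hypoxia, so the sources used here differ on how the normoxia lenses were timed. H3K27ac, a histone acetylation found at active enhancers and promoters, had 2 libraries per condition, and H3K4me3, a methylation found at the starts of active genes, had 3. The nonspecific control IgG had 3 per condition and was not analysed here. Each library pooled 10 to 15 lenses, and the labels name no difference between the groups other than oxygen.

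Autophagy encloses part of the cytoplasm in a new double membrane and delivers it to the lysosome for breakdown. A kinase complex starts the process, a lipid kinase complex marks the membrane, lipid transfer proteins let it grow, and a conjugation system fixes small ubiquitin-like proteins of the ATG8 family to it, which then bind cargo receptors. Lens fiber cells lose their nuclei, mitochondria and endoplasmic reticulum as they mature. Mutations in FYCO1 cause cataract in humans, and loss of Pik3c3 or Atg5 from the lens causes cataract in mice.

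Each mark has 1 list of peaks per condition, with no value per library and no peak score. No comparison below therefore has a replicate check, no p-value was computed, the read depth is unknown, and peak width stands in for strength. The 95% intervals (Wilson) cover the counting of genes or peaks only. Over the whole series the H3K27ac list held 45734 peaks in hypoxia and 15511 in normoxia, whereas the H3K4me3 lists held 24987 and 22288, so each count of these genes is set beside the share of all genes. The lens fiber markers BFSP1, BFSP2, CRYAA, GJA3, HSF4 and MIP had H3K27ac at the promoter in both conditions, and ASL1 had it in hypoxia alone. Of 3 lens epithelium genes, PAX6 and CDH1 were in both lists and GJA1 in that of hypoxia alone. Markers of other cell types also had promoter H3K27ac in places. Of 4 retina and neuron genes, ELAVL4 was in both lists and NEFL in that of hypoxia alone. Of 5 blood and endothelium genes, TIE1 was in the normoxia list, and of 4 mesenchyme genes, COL1A1 and DCN were in the hypoxia list. Neither of the 2 pigment epithelium genes had a promoter peak. The part of such cells in the results below was not tested. Coordinates refer to the chicken build galGal6 and count from 1.

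At the promoters of these genes, H3K4me3 was in place in both conditions, and the difference between the lists lay in H3K27ac. Promoter peaks are those lying at most 3000 bp from a transcript start by the table's distance. A gene counts as being in both lists when each list holds a promoter peak for it, or when its promoter peak overlaps, by at least 1 bp, any peak of the list from the other condition. For H3K4me3, all 31 genes with a promoter peak of either mark were in both lists, where 84.3% of all 11758 such genes were. None was found in hypoxia alone (4.75% of all genes), in normoxia alone (3.21%) or in neither (7.76%). The remaining gene, ATG13, had no promoter peak of either mark. For H3K27ac, 17 of the 31 were in both lists (54.8%, interval 37.8 to 70.8%), against 37.1% of all genes.

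Promoter H3K27ac without a counterpart in normoxia was listed for 11 genes in hypoxia, namely PIK3C3, ATG14, ATG2B, ATG5, ATG7, ATG16L1, MAP1LC3A, GABARAPL1, OPTN, VPS18 and VPS39. That is 11 of 31 genes (35.5%, interval 21.1 to 53.1%) against 37.2% of all genes, a share near the background. Counting every peak annotated to a gene, 9 of 31 genes with H3K27ac had it in hypoxia alone, against 41.9% of all genes, and 1 of 32 genes with H3K4me3 (ATG13) had it in hypoxia alone, against 7.1%. By promoter H3K27ac, none of the 31 genes was in the normoxia list only, against 4.77% of all genes. BECN1, MAP1LC3C and SQSTM1 had promoter H3K27ac in neither list, 3 of 31 against 20.9% of all genes. These counts depended on how peaks were admitted: when the longer list of each mark was reduced to its widest peaks so that both lists had equal numbers, 7 genes were in the hypoxia list only, and the normoxia list alone held 5 (ATG12, FYCO1, GABARAPL2, MAP1LC3B and TFEB). That cut removed narrow peaks from the hypoxia list alone, so a state of normoxia alone can follow from the cut itself. At ATG12 and MAP1LC3B the removed hypoxia promoter peak was wider than the normoxia peak that stayed. At FYCO1, GABARAPL2 and TFEB the widest removed peak was narrower than the widest normoxia peak. When 50% of each of the paired peaks had to overlap, 6 genes had such a pair for H3K27ac. The rest of the 17 kept promoter peaks in both lists that did not overlap by that much, so none of them moved to 1 list. The shares of all genes under these settings were not computed.

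**Figure D1:**
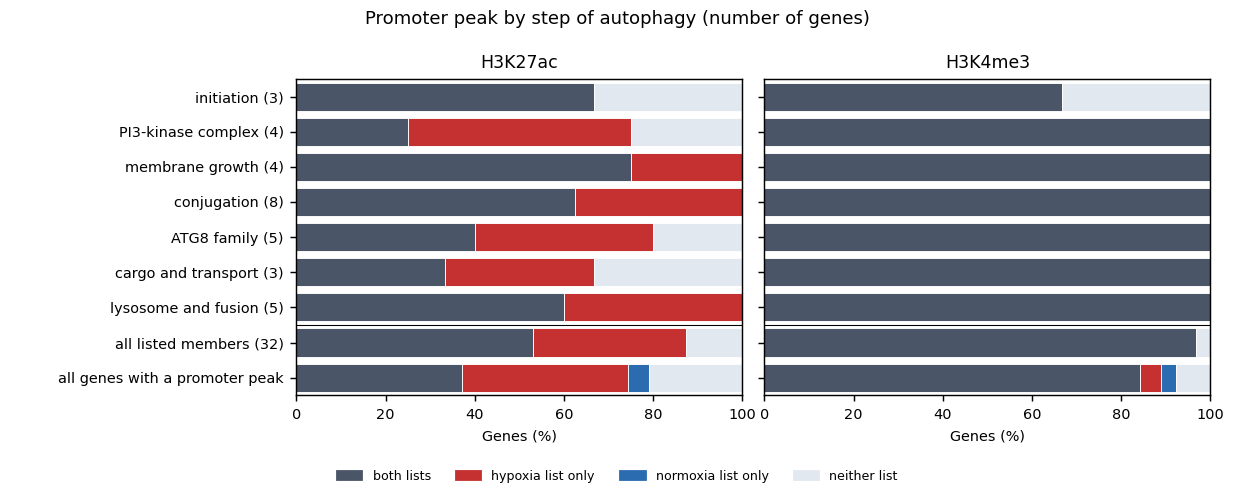
Share of genes (%, horizontal axis) by promoter state for each step of autophagy, for all 32 listed genes and for all genes with a promoter peak; the colours stand for promoter peaks in both lists, in that of hypoxia alone, in that of normoxia alone or in neither. H3K4me3 bars of the steps are filled by genes in both lists in every step but initiation, where ATG13 has none. H3K27ac bars of the steps hold genes in both lists and, except in initiation, genes in the hypoxia list only. In initiation, the phosphatidylinositol 3-kinase complex, the ATG8 family and cargo and transport, 1 gene each is in neither H3K27ac list. For all genes the H3K27ac bar also holds 4.77% in normoxia alone and 20.9% in neither.

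Initiation rests on a kinase complex, and its 3 genes did not look alike. ULK2, the kinase, had 1 H3K27ac peak at its start in each list, 802 bp in normoxia and 1427 bp in hypoxia. Its H3K4me3 promoter peak was 5069 bp in normoxia against 4591 bp in hypoxia. ULK2 thus carried both marks in both conditions, with the acetyl peak wider and the methyl peak narrower in hypoxia. RB1CC1, the scaffold of the complex, had an H3K27ac promoter peak of 1486 bp in normoxia that lay wholly within a peak of 2180 bp in hypoxia. Its number of H3K27ac peaks was 1 in normoxia and 10 in hypoxia, and its covered length, the summed width of all peaks annotated to the gene, was 1.49 kb and 6.26 kb. In the opposite direction, the H3K4me3 of RB1CC1 covered 4.65 kb in normoxia against 3.08 kb in hypoxia.

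ATG13, the adaptor that joins ULK kinases to the scaffold, had peaks only away from its annotated start. Its H3K27ac was a peak of 443 bp at 16.9 kb from the start in normoxia, and in hypoxia a peak of 2041 bp over the same place plus 1 of 1568 bp within the gene at 7.51 kb. The transcript start of ATG13, inferred from the signed distances in the table, lies near peaks that the table names for the neighbouring gene HARBI1. In normoxia an H3K4me3 peak of 460 bp named for HARBI1 lay 2813 bp from that start, and in hypoxia an H3K27ac peak of 1908 bp lay 2966 bp away. Counting any peak within 3000 bp of an inferred start, whichever gene it is named for, puts ATG13 in both H3K27ac lists and in the normoxia H3K4me3 list only. The normoxia H3K27ac peaks themselves lay 3140 and 4673 bp away, and count through their overlap with that hypoxia peak. A hypoxia H3K4me3 peak of 2524 bp lay 3575 bp away, also outside the window.

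The phosphatidylinositol 3-kinase complex, which makes the lipid that recruits later factors, had 4 H3K27ac peaks in normoxia, covering 2.06 kb, and 28 in hypoxia, covering 17.1 kb. The ratio of 8.29 was the largest of the 7 steps, but without PIK3C3 it was 5.50, below the 5.97 of lysosome and fusion. Over all genes the ratio was 3.35. PIK3C3, the catalytic subunit, had 2 H3K27ac peaks in normoxia (0.696 kb) and 17 in hypoxia (9.59 kb). Only 1 of the 17 lay in the promoter window, a peak of 953 bp over the transcript start on chromosome Z from 4060572 to 4061524. The others reached from 3.75 kb to 598 kb from a start, so the table's annotation, and not closeness, ties many of them to PIK3C3.

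ATG14, which directs the kinase complex to the forming autophagosome, had no H3K27ac peak in normoxia and 4 in hypoxia, the nearest of 473 bp at 1.12 kb downstream of the start. UVRAG, the subunit of the alternative complex that acts in endosome and autophagosome maturation, had its H3K27ac promoter peak in both lists, 1173 bp in normoxia and 1712 bp in hypoxia. Beyond the promoter window UVRAG had 1 H3K27ac peak in normoxia and 5 in hypoxia, all downstream of its start. BECN1, the regulatory subunit, had no H3K27ac peak annotated to it in either list. Its H3K4me3 promoter peak was 1899 bp in normoxia against 2406 bp in hypoxia, and the table annotates the same intervals to the adjacent gene PSME3. A normoxia H3K27ac peak of 589 bp named for PSME3 (chromosome 27, 7880308 to 7880896) overlapped 519 bp of the BECN1 methyl peak, whereas no hypoxia H3K27ac peak overlapped it. Whether BECN1 lacks H3K27ac in normoxia thus depends on whether that peak is given to PSME3 alone, which the shared interval cannot decide.

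Membrane growth genes held some of the widest H3K27ac peaks of the whole set. WIPI1, a reader of the kinase product, had a promoter H3K27ac peak of 857 bp in normoxia and of 4797 bp in hypoxia. The 4797 bp peak spanned 3 separate normoxia peaks. Another hypoxia peak of 3787 bp lay within WIPI1 at 6.71 kb from its start (chromosome 18, 7833774 to 7837560) and was the widest H3K27ac peak of these genes outside the promoter window. The H3K4me3 promoter peak of WIPI1 was 5452 bp wide in normoxia and 10048 bp wide in hypoxia, so both marks were wider there in hypoxia.

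WIPI2, which recruits the conjugation machinery, had H3K27ac peaks of 238 and 268 bp in the promoter window in normoxia and a peak of 2955 bp in hypoxia. Its H3K4me3 peak was 2727 bp in normoxia against 3080 bp in hypoxia. ATG2B, the lipid transfer protein, had an H3K27ac peak of 2249 bp in hypoxia (chromosome 5, 46645452 to 46647700) and none in normoxia, over H3K4me3 of 2882 bp in normoxia against 3430 bp in hypoxia. ATG2B shares this interval with the neighbouring gene GSKIP. ATG9A, the membrane protein that supplies lipid vesicles, had 551 bp of H3K27ac in normoxia and 1069 bp in hypoxia, in an interval that the table also gives to ANKZF1.

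**Figure D2:**
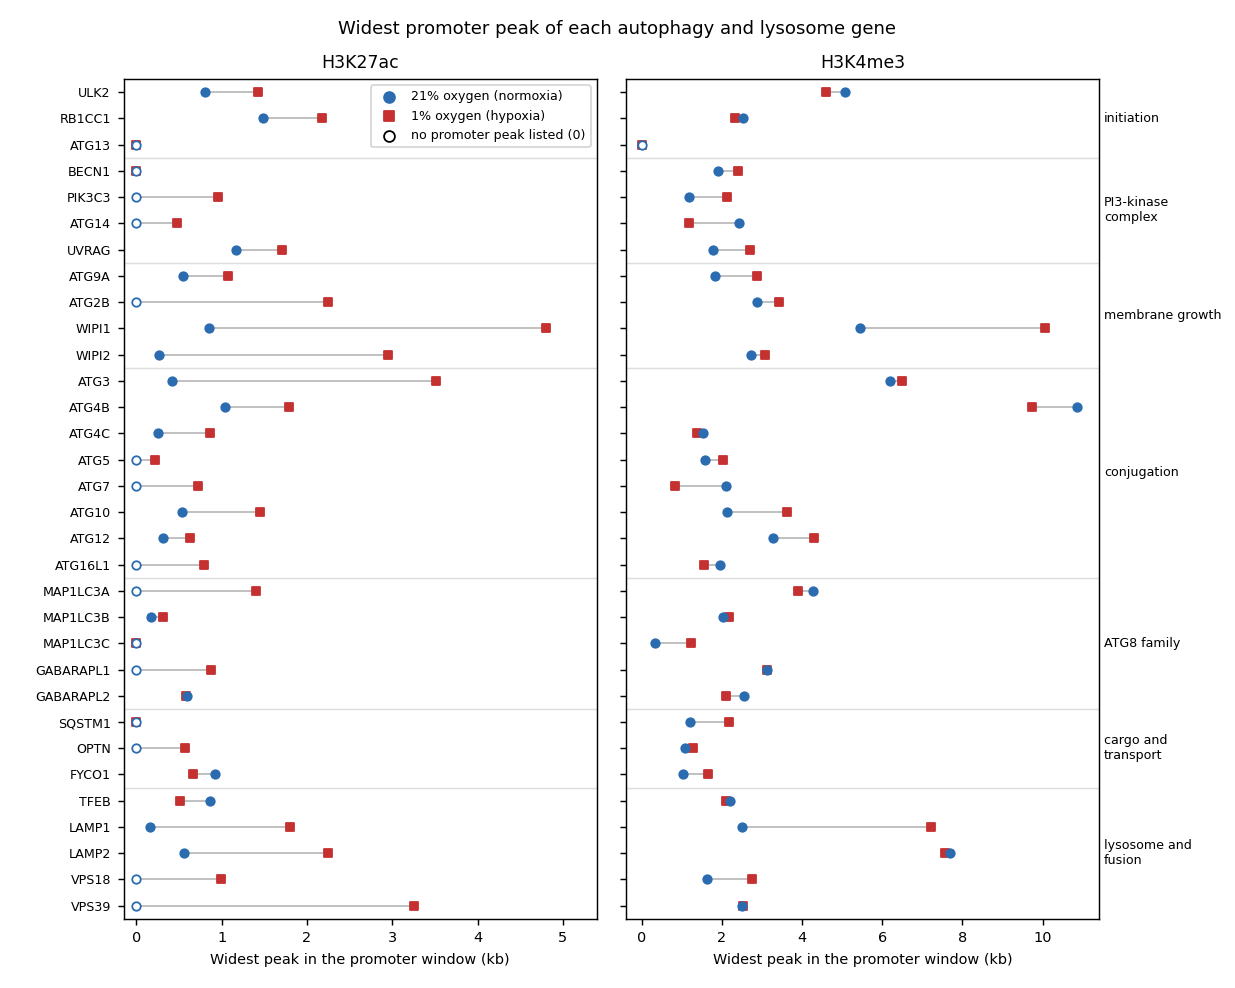
Width in kb of the widest peak in the promoter window of each gene, H3K27ac on the left and H3K4me3 on the right, with normoxia as blue circles, hypoxia as red squares and open symbols at 0 for no promoter peak; genes are grouped by step. H3K27ac is wider in hypoxia at most genes, with WIPI1 at 4797 bp the widest, while H3K4me3 differs in both directions, from 2112 to 840 bp at ATG7 and from 2514 to 7217 bp at LAMP1.

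The 8 conjugation genes all had promoter H3K27ac in hypoxia, as did all genes of membrane growth and of lysosome and fusion. Among all genes with a promoter peak of either mark, 8696 of 11758 had it. Of the 8 conjugation genes, 5 were in both lists (62.5%, against 37.1% of all genes). The other 3 were in the hypoxia list only (37.5%, near the 37.2% of all genes). The H3K4me3 of the conjugation genes covered 42.4 kb in normoxia against 42.2 kb in hypoxia, while their H3K27ac covered 6.23 kb and 19.5 kb. That is an H3K27ac ratio of 3.13, against 3.35 over all genes. The median log2 ratio of the 6 conjugation genes with H3K27ac in both lists was 1.82, against 1.53 over all genes. ATG7, the enzyme that activates both ubiquitin-like proteins, had no H3K27ac peak in normoxia and 5 in hypoxia, the widest promoter peak being 723 bp. Its H3K4me3 peak was 2112 bp wide in normoxia and 840 bp wide in hypoxia, the lowest hypoxia to normoxia ratio of covered H3K4me3 among these genes (log2 -1.33).

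ATG3, which transfers ATG8 proteins to lipid, had 1 H3K27ac peak of 420 bp in normoxia, and in hypoxia a peak of 243 bp at the same place and a further peak of 3515 bp from 1.68 kb into the gene. That wide peak (chromosome 1, 84703000 to 84706514) overlapped no normoxia H3K27ac peak although it lay inside H3K4me3 of the same condition along its whole width. The H3K4me3 promoter peak of ATG3 barely differed, at 6205 bp and 6481 bp. ATG10, the transfer enzyme for ATG12, had an H3K27ac promoter peak of 537 bp in normoxia and of 1445 bp in hypoxia. Its H3K4me3 covered 2.14 kb in normoxia against 5.17 kb in hypoxia, which made ATG10 one of the few genes at which methylation covered at least 2 times the length in hypoxia. ATG12, a ubiquitin-like protein, had 308 bp of promoter H3K27ac in normoxia and 627 bp in hypoxia.

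ATG5, the partner to which ATG12 is joined, had a narrow H3K27ac promoter peak of 214 bp in hypoxia only, 469 bp upstream of its start. The H3K4me3 peak of ATG5 ran from 68246844 to 68248420 on chromosome 3 in normoxia and from 68245710 to 68247738 in hypoxia, so the narrow acetyl peak lay in the stretch that was methylated in the hypoxia list alone. ATG16L1, which places the ATG12 and ATG5 pair on the membrane, had a hypoxia H3K27ac peak of 795 bp at 0.866 kb from its start and no normoxia peak. ATG4B and ATG4C, the proteases that trim and release ATG8 proteins, differed from each other. ATG4B had the widest H3K4me3 promoter peak of the set in normoxia, 10864 bp, and 9729 bp in hypoxia, with 1042 bp and 1793 bp of H3K27ac at its start. The table also gives these ATG4B methyl intervals to THAP4 and to an unnamed gene. ATG4C had H3K27ac peaks of 256 bp in normoxia against 869 bp in hypoxia that did not overlap each other.

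The ATG8 family proteins decorate the membrane and bind cargo receptors, and its 5 listed genes had 3 different H3K27ac states. MAP1LC3A had no H3K27ac peak in normoxia. In hypoxia it had peaks of 1399 bp and 1224 bp, 361 bp and 403 bp upstream of annotated starts, on either side of an H3K4me3 peak of 3899 bp (4279 bp in normoxia). The second acetyl peak overlapped that methyl peak by 590 bp and the first did not. GABARAPL1 had a promoter H3K27ac peak of 876 bp in hypoxia (chromosome 1, 79157025 to 79157900) and none in normoxia, where its only H3K27ac peak, of 745 bp, lay 9.21 kb downstream of the start. Its H3K4me3 promoter peak had the same width of 3117 bp in both lists.

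MAP1LC3B was in both lists by the promoter rule, but its peaks lay at different places. The normoxia peak of 171 bp lay 265 bp downstream of the start, inside the H3K4me3 peak, and the hypoxia peak of 313 bp lay 2032 bp downstream, beyond it. With a window of 1000 bp MAP1LC3B and ATG4C were in the normoxia list only, and the share of all genes under that window was not computed. GABARAPL2 had a promoter peak of 595 bp in normoxia and peaks of 256 and 579 bp in hypoxia, with H3K4me3 of 2559 bp and 2116 bp. MAP1LC3C had no promoter H3K27ac in either list, and its 2 hypoxia peaks lay 34.2 and 50.6 kb upstream. Its H3K4me3 promoter peak was 342 bp in normoxia against 1241 bp in hypoxia, and the covered H3K4me3 was 0.342 kb and 1.71 kb, the highest hypoxia to normoxia ratio among these genes (log2 2.32).

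SQSTM1, the receptor that links ubiquitinated cargo to the ATG8 family, had no H3K27ac at its promoter in either list. Its single acetylated place lay upstream, as a peak of 332 bp at 11.5 kb in normoxia and of 1369 bp at 10.9 kb in hypoxia (chromosome 13, 14182702 to 14184070). The hypoxia peak contained the normoxia peak. Both sat inside wide upstream H3K4me3 peaks, 6025 bp in normoxia and 4850 bp in hypoxia, which were wider than the H3K4me3 at the SQSTM1 start itself (1216 bp and 2168 bp). OPTN, a receptor for damaged mitochondria and bacteria, had no H3K27ac in normoxia and 3 peaks in hypoxia. These measured 576 bp at 0.223 kb downstream of the start, 167 bp at 2.51 kb upstream and 811 bp at 5.27 kb upstream. The H3K4me3 peak at the OPTN promoter was 1079 bp wide in normoxia and 1271 bp wide in hypoxia.

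FYCO1, the adaptor that moves autophagosomes along microtubules with kinesin, was acetylated at and upstream of its start in both conditions. Its H3K27ac peak nearest the start was 922 bp in normoxia against 660 bp in hypoxia, the shared interval being the whole hypoxia peak. An upstream peak was 1679 bp at 6.99 kb in normoxia and 2483 bp at 6.66 kb in hypoxia, and it overlapped H3K4me3 of 3021 bp and 4614 bp. The hypoxia list also held promoter peaks of 567 bp at 2.16 kb upstream and 510 bp at 2.04 kb downstream, which overlapped no normoxia peak. FYCO1 thus had a narrower acetyl peak nearest the start in hypoxia, but H3K27ac in its promoter window covered 0.922 kb in normoxia against 1.74 kb in hypoxia. In all, its H3K27ac covered 2.77 kb in normoxia against 6.15 kb in hypoxia.

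Among lysosome genes, LAMP1 and TFEB stood at opposite ends. LAMP1, a major protein of the lysosomal membrane, had 1 H3K27ac peak of 165 bp in normoxia and 6 peaks in hypoxia. Covered H3K27ac of LAMP1 was thus 0.165 kb against 4.68 kb, a ratio of 28.4, the highest of these genes, and the normoxia value was near the narrowest width in the list (162 bp over all genes). The widest of the 6, of 1798 bp over the start (chromosome 1, 138849413 to 138851210), contained the normoxia peak. The H3K4me3 of LAMP1 was split differently between the lists, as 2514 bp over the start and 5820 bp within the gene in normoxia and as 7217 bp over the start in hypoxia, with covered lengths of 8.33 kb and 8.99 kb.

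LAMP2, the partner membrane protein that also serves in autophagosome fusion, had 3 H3K27ac peaks in normoxia, covering 1.82 kb, and 6 in hypoxia, covering 7.20 kb. The hypoxia peak of 2246 bp lay 1.82 kb upstream of the start, and the peak at the start itself was 554 bp in normoxia against 1283 bp in hypoxia. H3K4me3 over the LAMP2 start was 7686 bp wide in normoxia and 7560 bp wide in hypoxia. All 3 normoxia acetyl peaks of LAMP2 overlapped a hypoxia peak.

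TFEB encodes a transcription factor that switches on lysosome and autophagy genes, and it was the only member with peaks in both H3K27ac lists whose covered length was smaller in hypoxia. Its H3K27ac covered 1.49 kb in normoxia in 3 peaks and 1.24 kb in hypoxia in 5 peaks, and no TFEB peak of either list overlapped a peak of the other. The widest normoxia peak, of 860 bp, lay 0.111 kb downstream of a start (chromosome 26, 4938970 to 4939829) and inside the H3K4me3 peak of 2216 bp. No hypoxia H3K27ac peak overlapped the H3K4me3 promoter peaks of TFEB, the widest of which was 2093 bp, and the widest acetyl peak there was 511 bp at 2.49 kb. TFEB has more than one annotated start, which these distances refer to in turn.

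VPS18 and VPS39 encode subunits of the tethering complex that fuses autophagosomes and late endosomes with lysosomes. Neither had an H3K27ac peak in normoxia, and each had 4 in hypoxia. At VPS39 a peak of 3252 bp covered the start (chromosome 5, 25824157 to 25827408), the widest promoter H3K27ac among the genes in the hypoxia list only. Its H3K4me3 was 2492 bp in normoxia against 2526 bp in hypoxia. At VPS18 the H3K27ac peak over the start was 988 bp, and H3K4me3 was 1624 bp wide in normoxia and 2756 bp wide in hypoxia. At both tethering genes the hypoxia list thus held promoter H3K27ac over H3K4me3 that was in both lists. Of all genes with a promoter peak, 37.2% had promoter H3K27ac in hypoxia alone and 84.3% had promoter H3K4me3 in both lists.

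**Figure D3:**
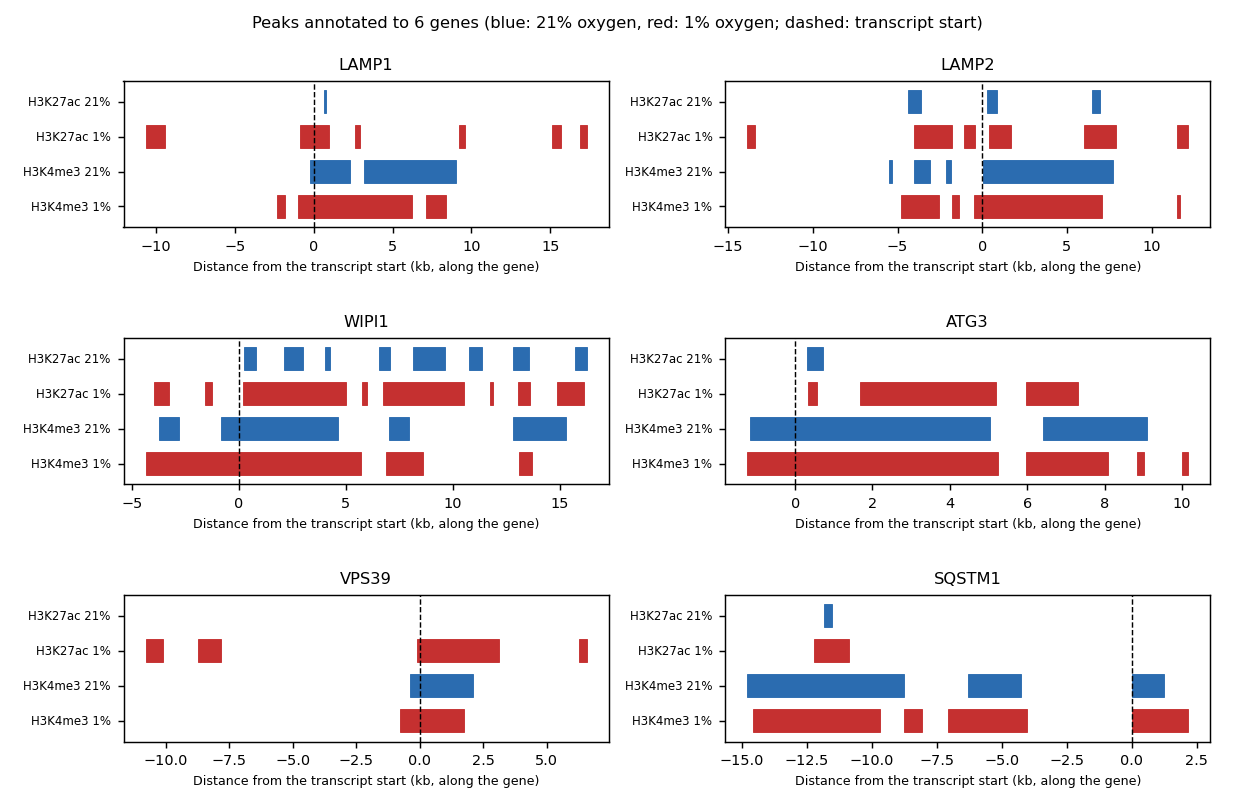
Peaks annotated to LAMP1, LAMP2, WIPI1, ATG3, VPS39 and SQSTM1, drawn to scale along each gene in kb from the start of 1 transcript (dashed line), with 1 row for each mark and condition. LAMP1 and VPS39 have 1 and no H3K27ac peak in normoxia and several in hypoxia, WIPI1 has a hypoxia peak of 4797 bp over 3 normoxia peaks, and at SQSTM1 H3K27ac lies only in the upstream H3K4me3 block.

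Over all peaks annotated to a gene, 22 of the 32 genes had H3K27ac in both lists and could be compared by covered length. The total over the 32 genes was 25.9 kb in normoxia against 104 kb in hypoxia, a ratio of 4.02, against 3.35 over all genes. Covered H3K27ac was larger in hypoxia at 21 of the 22, against 89.7% of all genes, and at least 2 times as long at 16 (72.7%), against 67.3% of all genes. None covered as little as 1 / 2 of the normoxia length, where 3.23% of all genes did. The median log2 ratio was 1.82 (quartiles 0.99 and 2.25), and the median of 6959 genes was 1.53, so the median of these genes lay inside the quartiles of all genes (0.73 and 2.39). Only within 3000 bp of a start, the count at 2 times or more was 10 of 17 genes and the median 1.05. With peaks of at least 500 bp alone, the count was 7 and the median 1.09, over fewer comparable genes than 22. The shares of all genes under these 2 settings were not computed, so these values cannot be set beside the series.

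The highest log2 ratios belonged to LAMP1 (4.83), PIK3C3 (3.78), ATG3 (3.61), ATG13 (3.03) and WIPI2 (2.65), and the lowest to TFEB (-0.26), ATG5 (0.28), ATG4B (0.36), ULK2 (0.83) and GABARAPL2 (0.83). The first group had between 0.165 and 0.696 kb of H3K27ac in normoxia. In the second group ATG5 had 0.176 kb, and the others had between 0.595 kb (GABARAPL2) and 4.53 kb (ATG4B). The part of a short length in normoxia in these ratios was not tested. By steps, covered H3K27ac in hypoxia over normoxia was set beside the ratio of 3.35 over all genes. It was higher for initiation (4.14), the lipid kinase complex (8.29), the ATG8 family (4.80) and lysosome and fusion (5.97). It was lower for membrane growth (2.77), conjugation (3.13) and cargo and transport (2.92). These are ratios of summed lengths, which include genes without H3K27ac in normoxia. The median log2 ratio over genes with peaks in both lists gave another order. Conjugation (1.82, 6 genes) and cargo and transport (1.597, 2 genes) lay above the 1.53 of all genes. The ATG8 family (1.13, 3 genes) lay below it. The other steps stayed on the same side by both measures.

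H3K4me3 covered nearly the same length in both conditions. The total was 133 kb in normoxia against 148 kb in hypoxia, a ratio of 1.11, equal to the 1.11 of all genes. The median log2 ratio over 31 genes was 0.18 (quartiles -0.12 and 0.43), against 0.12 over 11063 genes. It was larger in hypoxia at 22 of 31, against 60.1% of all genes. ATG10 and MAP1LC3C covered at least 2 times the length in hypoxia, 2 of 31 against 7.44% of all genes, and ATG7 and ATG14 covered at most 1 / 2, against 4.36%. UVRAG (0.76), VPS18 (0.76) and FYCO1 (0.72) followed at the upper end, and RB1CC1 (-0.59), ATG4C (-0.41) and ATG16L1 (-0.33) at the lower end.

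**Figure D4:**
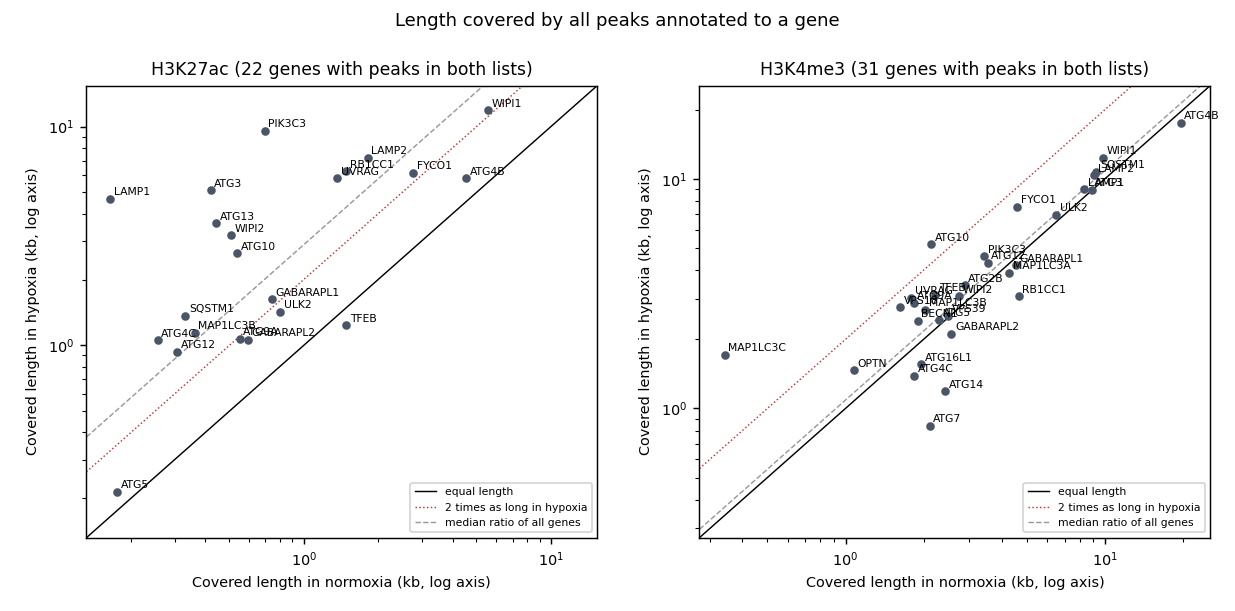
Covered length of each gene in normoxia (horizontal axis) against hypoxia (vertical axis), both in kb on log axes, for the 22 genes with H3K27ac and the 31 with H3K4me3 in both lists; lines mark equal length, 2 times the length and the median ratio of all genes. For H3K27ac every gene but TFEB lies above the line of equal length, and for H3K4me3 the genes lie around it.

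Outside the promoter window these genes had 20 H3K27ac peaks in normoxia and 76 in hypoxia, and 67 of the 76 overlapped no normoxia peak. The 9 that did make up 11.8% (interval 6.36 to 21.0%), against 15.1% over all genes, so the share without a normoxia counterpart is near that of the series. At least 1 such peak was annotated to 25 of 31 genes in hypoxia, against 63.5% of all genes, and to 10 of 31 in normoxia, against 32.2%. The 67 unmatched hypoxia peaks had a median width of 470 bp, and the 9 that overlapped a normoxia peak had a median of 1899 bp. Of the 76 hypoxia peaks, 22.4% overlapped H3K4me3 of the same condition, while 72.7% of the 44 hypoxia peaks in the promoter window did, close to the 21.8% and 72.1% over all genes. With lists of equal number 26 such hypoxia peaks remained, 18 of them overlapping no normoxia peak, and 40 of the 76 were at least 500 bp wide. The shares over all genes under these settings were not computed.

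After the WIPI1 peak of 3787 bp, the widest were a hypoxia peak of 3507 bp at ATG4B, 4.64 kb from a start, and the FYCO1 peak of 2483 bp. Both overlapped normoxia peaks. PIK3C3 had 16 of the 76, RB1CC1 had 7, WIPI1 had 6 and UVRAG had 5. The widest H3K4me3 peaks outside the window were those of ATG4B (7173 bp in normoxia), SQSTM1 (6025 bp in normoxia) and LAMP1 (5820 bp in normoxia). H3K4me3 outside the window was annotated to 13 of 31 genes in normoxia, against 38.1% of all genes, and to 17 of 31 in hypoxia, against 41.9%.

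**Figure D5:**
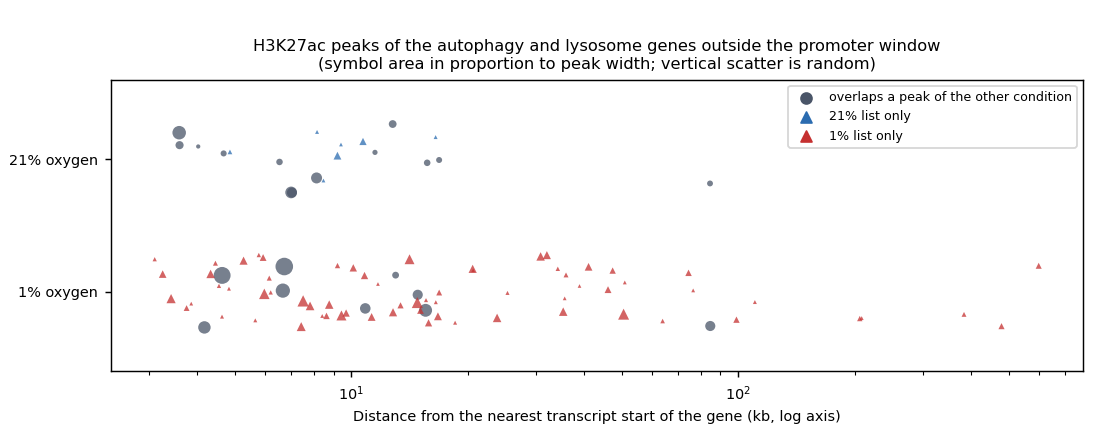
H3K27ac peaks of these genes outside the promoter window, by distance from the nearest transcript start of the gene (kb, log axis), with normoxia in the upper row and hypoxia in the lower row; symbol area is in proportion to peak width, circles overlap a peak of the other condition, triangles do not, and the vertical scatter within a row is random. The lower row holds 76 peaks, 67 of them triangles, and the upper row holds 20.

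At most acetylated promoters the 2 marks overlapped. In normoxia 17 of 31 genes had H3K27ac over H3K4me3 at the promoter, against 35.3% of all genes, and these were all the genes with promoter H3K27ac (87.3% over all genes with it). In hypoxia 23 of 31 did, against 60.6% of all genes. These were 23 of the 28 genes with promoter H3K27ac, where the share over all such genes was 82%, and the exceptions were ATG14, ATG16L1, ATG4C, MAP1LC3B and TFEB. At ATG14 the hypoxia H3K27ac peak of 473 bp lay wholly within the normoxia H3K4me3 peak (chromosome 5, 56371495 to 56373912) but beyond the end of the hypoxia H3K4me3 peak (56372698). At ATG16L1 it overlapped 348 bp of the normoxia methyl peak and 0 bp of the hypoxia one. At ATG7 the peak of 723 bp lay wholly within the normoxia methyl peak and overlapped 244 bp of the hypoxia one. At these genes the H3K27ac of the hypoxia list thus lay, wholly or in part, over a downstream stretch that was methylated in the normoxia list alone. When 50% of each peak had to overlap, 3 genes in normoxia and 7 in hypoxia had the marks together, and with lists of equal number it was 17 in each condition. The shares of all genes under these settings were not computed. ATG14, ATG16L1 and ATG7 are among the genes with less covered H3K4me3 in hypoxia.

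Several promoters are shared with a neighbour in the table, so their peaks cannot be given to the autophagy gene alone. This holds for ATG12 with AP3S1, ATG2B with GSKIP, ATG3 with SLC35A5, ATG4B with THAP4, ATG9A with ANKZF1, BECN1 with PSME3 and GABARAPL2 with TMEM231 and CHST6. H3K4me3 intervals were shared in all of these pairs, and H3K27ac intervals in those of ATG2B, ATG4B and ATG9A.

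Of 25 further autophagy genes, 13 had promoter H3K27ac in both lists, 9 had it in hypoxia alone, 1 in normoxia alone and 2 in neither. These were 52%, 36%, 4% and 8%, against 37.1%, 37.2%, 4.77% and 20.9% of all genes. The median log2 ratio of covered H3K27ac was 1.61 over 20 of the further autophagy genes, against 1.53 over all genes. ULK1, the sister kinase of ULK2, was in both lists and covered 4131 bp in normoxia and 5697 bp in hypoxia. VPS11 and VPS33A, further tethering subunits, had no H3K27ac in normoxia, and in hypoxia they covered 3481 and 5815 bp, so they showed the same states as VPS18 and VPS39, whereas VPS16 and VPS41 of that complex were in both lists. CALCOCO2, a cargo receptor, was the single gene of these with promoter H3K27ac in normoxia only, a state that none of the members had, and it covered 620 bp in normoxia and 3193 bp in hypoxia over all its peaks. AMBRA1, a regulator of the BECN1 complex, had no promoter H3K27ac and covered 1876 bp in normoxia and 527 bp in hypoxia. For H3K4me3, 23 of the 25 were in both lists, against 84.3% of all genes. WDFY3 was in the H3K4me3 hypoxia list only (4.75% of all genes) and RUBCN in neither (7.76%).

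Of 34 further lysosome genes, 16 had promoter H3K27ac in both lists, 10 had it in hypoxia alone, 0 in normoxia alone and 8 in neither. These were 47.1%, 29.4%, 0% and 23.5%, against 37.1%, 37.2%, 4.77% and 20.9% of all genes. All 34 had promoter H3K4me3 in both lists, against 84.3% of all genes. The median log2 ratio of covered H3K27ac was 1.22 over 23 of the further lysosome genes, below the 1.53 over all genes. ATP6V1A, a catalytic subunit of the pump that acidifies lysosomes, covered 2322 bp in normoxia and 11210 bp in hypoxia. CTSD, a lysosomal protease, covered 207 bp in normoxia and 2845 bp in hypoxia. ATP6AP1, an accessory subunit of the pump, went the other way, with 555 bp in normoxia and 266 bp in hypoxia. CTSA, CD63 and PPT1 had no H3K27ac peak in either list.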

How the data were processed

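H3K27ac and H3K4me3 CUT&RUN of chick lenses was analysed from the deposited table of annotated peaks, which per the file headers gives interval, distance to a transcript start, genomic class and gene for each peak in 4 lists, 1 per mark and condition. Per the submitters' processing notes, the build was galGal6 and the tools were ChIPseeker, MACS2, STAR and DESeq2, without version or role. The peak threshold, the control and the pooling of libraries are not given in the sources used here. The deposited positions are BED starts and ends, and no signal or p-value is held, so the planned count test was replaced by a description.

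The 124414 lines were reduced to 108520 peaks by counting each interval of a list once, and a peak annotated to several genes counted for each of them in covered lengths. Promoter peaks lay within 3000 bp of a start and lists were matched by overlaps of at least 1 bp (pandas 2.3.3, checked with bedtools 2.31.1 and tested on simulated data). Covered length is the summed width of a gene's peaks, and 2 times the length was called different. Genes were matched by the symbols of the table. Named in full were the cargo, ATG8 family and lysosome genes, genes in 1 list only, the 5 highest and 5 lowest covered ratios per mark, and the 3 widest peaks outside the window. Genes of the further lists were named after their values were seen. Members and lists were chosen with earlier results of these data known. Groups followed the labels of each library, and IgG was left out. No sequence was used.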

Additional observations from a re-analysis of the deposited data

How the results depend on the processing

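The alternatives comprised 12 settings and 126 recomputed values, 95 of which stayed close to the reported value and 31 moved. A count could differ and still be called close, such as 12 genes instead of 17 in both H3K27ac lists with lists of equal number. A change of direction was defined for the median log2 ratios only, and none of these changed sign. For H3K27ac promoter states, a 50% reciprocal overlap left 6 genes with matched peaks. The rest of the 17 kept promoter peaks in both lists without such an overlap. A window of 1000 bp put 2 genes in the normoxia list only, and use of every annotated peak left 1 gene in neither list. Peaks of at least 500 bp gave 11 genes in both lists and 7 in neither, and lists of equal number gave 7 in the hypoxia list only, 5 in the normoxia list only and 8 in neither. Equal numbers were reached by removing narrow peaks from the hypoxia list alone. Counting H3K27ac peaks inside a gene's H3K4me3 promoter peak whatever gene they are named for, an alternative chosen after seeing the data, put 1 gene (BECN1) in the normoxia list only. For H3K4me3, every annotated peak gave 1 gene in the hypoxia list only and 0 in neither, peaks of at least 500 bp gave 1 in the hypoxia list only, and inferred starts, also chosen after seeing the data, gave 1 in the normoxia list only and 0 in neither.

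Covered H3K27ac within 3000 bp of a start was at least 2 times as long at 10 of 17 genes, with a median log2 ratio of 1.05. With peaks of at least 500 bp the values were 7 genes and 1.09, over fewer comparable genes than the 22 reported. Lists of equal number gave a median of 1.53. The H3K4me3 median was 0.25 within 3000 bp and with every line of the table counted, and 1 gene was at 2 times or more with peaks of at least 500 bp. Promoters with both marks numbered 3 in normoxia and 7 in hypoxia with the 50% overlap, and 11 in normoxia with peaks of at least 500 bp, and lists of equal number gave 17 in both conditions. Without PIK3C3, an alternative chosen after seeing the data, the H3K27ac ratio of the lipid kinase complex was 5.50. Outside the window, peaks of at least 500 bp numbered 40 in hypoxia, 35 of them unmatched, and 10 in normoxia, and lists of equal number held 26 hypoxia peaks, 18 of them unmatched. The shares of all genes were not computed under the alternative settings, so these values cannot be set beside the series. The cause of these shifts was not tested. No paired analysis was possible because the lists hold no value per library, and leaving out each replicate was not run for the same reason. Read depth is unknown, so a peak missing from a list may be one that the list's depth could not show.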
